A study of Mus musculus with 12 samples.

Results

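Long intergenic noncoding RNAs (lincRNAs) with measurable expression in mouse kidney were compared between sham and HP-AKI libraries taken at day 1, 6 of each. HP-AKI is, in this field, the usual short name for acute kidney injury caused by heme proteins; the labels give the abbreviation only, and strain, sex, age, the injury procedure and its dose are not given in the sources used here. RNA was whole-kidney total RNA, made into libraries with a TruSeq RNA kit (version 2) and sequenced on an Illumina HiSeq instrument. The labels do not say that the 12 libraries came from separate animals, so p-values measure only the spread between libraries, which may be technical. The RNAs described here were chosen by their measured level: rows of the deposited gene table classed as lincRNA, not on X or Y, whose CPM (the count scaled to the library's total count) averaged 1 or more over the 12 libraries. There were 257 such genes among 2998 lincRNA genes of the table and 43346 genes in all, and 5 more passed the level but lie on X or Y. Levels are therefore a description only. The member closest above the limit was RP24-253I2.1, with a mean of 1.01 CPM, and the closest below it was E230001N04Rik, with 0.991 CPM.

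Long noncoding RNAs are transcribed and often spliced like messenger RNAs but are not known to encode proteins. Some build nuclear bodies, some carry small nucleolar RNAs (snoRNAs) or microRNAs in their introns or exons, and many start beside the promoter of a protein-coding gene and run away from it on the opposite strand. Several are known to respond quickly to stress, to p53, to MYC or to inflammation, and because they are often made at low level and in few cell types, their level in whole kidney also reflects which cells are present. In bulk RNA, fewer cells of a type and less RNA per cell cannot be told apart.

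The library totals ran from 35201197 to 41951129 counts in sham and from 31624522 to 40630917 in HP-AKI. Over all genes the first principal component, with 81.3% of the variance, separated the groups, and the second, with 7.85%, set sham 1, sham 2 and HP-AKI 8 at one end. Without those 3 libraries, 195 of the 202 lincRNA calls described below were kept in the same direction. Of the kidney epithelial markers, 4 of 7 fell and 2 rose, and Lrp2, the endocytic receptor megalin of the proximal tubule, fell by 2.91 on the log2 scale. All 3 tested neutrophil markers of 4 rose, their summed level going from 1.70 to 3.17 CPM in sham to 16.0 to 135.7 CPM in HP-AKI. The summed lymphocyte markers went from 3.05 to 4.51 CPM down to 0.461 to 0.876 CPM, with 2 of 3 tested markers lower. Of 5 macrophage markers 1 rose and 2 fell, with summed levels of 62.1 to 94.4 CPM in sham and 69.6 to 91.1 CPM in HP-AKI. The 3 skeletal muscle markers were at or near 0 in both groups, as were Cyp11b1 and Cyp21a1 of the adrenal cortex. The third adrenal marker, Star, a cholesterol transport protein, went from 1.74 ± 0.309 to 6.22 ± 0.994 CPM (SD, n = 6 each) and rose by 1.83. The part of these shifts in cell content in the lincRNA results was not tested.

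More expressed lincRNAs were lower than higher after HP-AKI. All 257 entered the test (edgeR's quasi-likelihood test with Benjamini-Hochberg adjustment over 17470 genes, called at an adjusted p under 0.05). Of them, 202 were called, which is 78.6%, beside 72.8% of all genes tested and 75.0% of protein-coding genes past the same level. By direction, 144 lincRNAs fell (56.0%) and 58 rose (22.6%), whereas among all genes tested 35.2% fell and 37.7% rose, and among the protein-coding genes 36.0% and 39.0%. Their median log2 fold change was -0.60, with quartiles of -1.64 and 0.28, beside a median of 0.04 over all genes tested. A change of at least 2-fold was called for 96 that fell and 35 that rose, together 51.0%, beside 33.1% of all genes tested and 30.0% of protein-coding genes. The 12 values of the groups did not overlap for 157 of 257 (61.1%), beside 52.4% of all genes tested and 55.5% of protein-coding genes. Because a gene can pass a mean of 1 CPM through 1 group alone, the count was repeated on the 186 lincRNAs with at least 1 CPM in each group: 133 were called (71.5%), 93 lower (50%) and 40 higher (21.5%), and the median was -0.41. Protein-coding genes under the same condition numbered 12379, of which 74.0% were called, 35.9% lower and 38.1% higher. A called change of at least 2-fold was found for 37.6% of the 186 and 27.3% of these protein-coding genes, and groups without overlap for 52.7% and 54.2%. The larger shares called and without overlap among the 257 were thus not seen among the 186. The 52 lincRNAs with an HP-AKI mean under 1 CPM and the 19 with a sham mean under 1 CPM entered through the other group, so their direction was set by the choice.

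**Figure D1:**
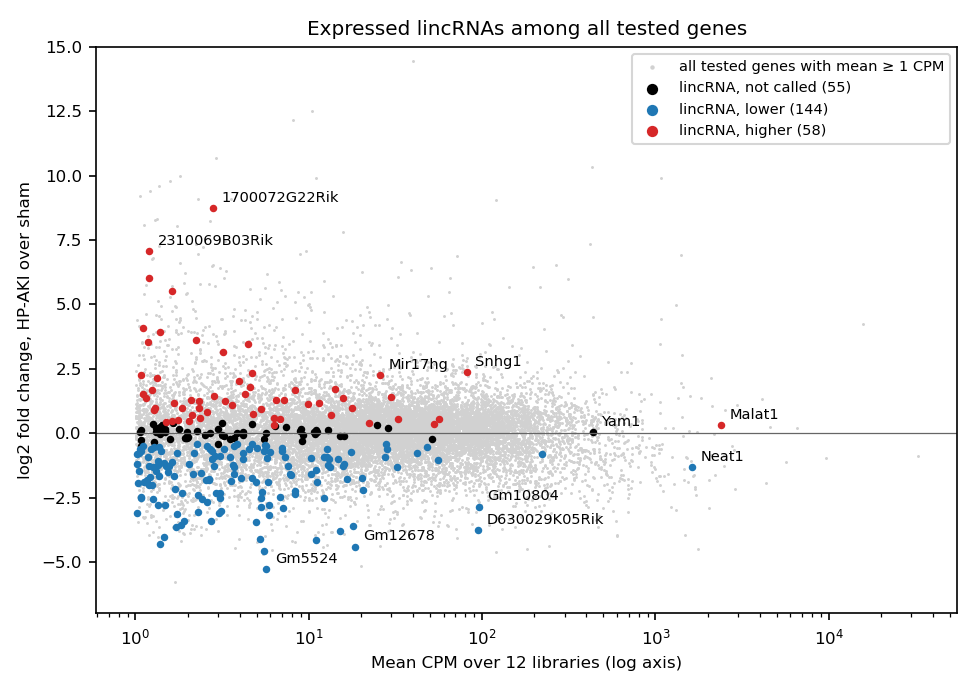
Mean CPM over the 12 libraries (log axis) against the log2 fold change of HP-AKI over sham. Grey points are tested genes of every class past the same level, and coloured points are the 257 lincRNAs: 144 lower (blue), 58 higher (red) and 55 not called (black). Blue points outnumber red ones above 10 CPM, from 2 to 10 CPM and below 2 CPM, and the lincRNAs with the highest CPM, Malat1 and Neat1, lie on opposite sides of 0; the groups of Malat1 overlap.

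Falls outnumbered rises in each of 3 bands of abundance. Among the 57 lincRNAs averaging 10 CPM or more, 33 fell (57.9%) and 13 rose (22.8%). Between 2 and 10 CPM, 66 of 116 fell (56.9%) and 27 rose (23.3%), and under 2 CPM, 45 of 84 fell (53.6%) and 18 rose (21.4%). Over all genes tested, at any level, 35.2% fell and 37.7% rose. The bands include the genes that entered through 1 group alone, whose direction was set by the choice, so they are a description only. The share of all counts that came from the 257 genes was 0.724% ± 0.0449 (SD, n = 6) in sham and 0.604% ± 0.0623 (SD, n = 6) in HP-AKI. More of the genes entered through their sham level alone (52) than through their HP-AKI level alone (19), and the share is a description with no test. Over the 186 genes with at least 1 CPM in each group it was 0.708% ± 0.0440 and 0.595% ± 0.0614 (SD, n = 6 each), and without Malat1 and Neat1 it was 0.278% ± 0.0121 and 0.221% ± 0.00471 (SD, n = 6 each). The genes were on the whole weakly expressed per length, with a median mean RPKM (reads scaled to gene length and library size) of 0.579 beside 2.14 for protein-coding genes past the same level. Libraries of a group also varied more in them than in the more highly expressed protein-coding genes: the median coefficient of variation over the 186 was 17.2% in sham and 20.3% in HP-AKI, beside 14.2% and 13.9%.

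Gene structure and annotation bear on what a row measures. In a later annotation (GENCODE vM21, same build, GRCm38), 240 of the 257 identifiers were found: 166 were still classed as lincRNA, 27 as antisense, 24 as bidirectional promoter RNAs, 14 as processed transcripts and 5 as protein-coding. Those 5 were Gm4131, 9130409J20Rik, Fam169b, AI854703 and 5430416O09Rik, and the last, now called Spaar, is known for a small protein; 4 of the 5 fell. The bidirectional promoter class held 18 falls (75.0%) and 1 rise (4.17%) among 24 genes. The antisense class held 14 falls (51.9%) and 1 rise (3.7%) among 27. Over the 257 the shares were 56.0% lower and 22.6% higher, and over all genes tested 35.2% and 37.7%. The share of falls in the antisense class was thus near that of the 257. Spans of other genes overlapped 121 of the 257, and 66 overlapped a protein-coding gene, 56 of them on the opposite strand. Strand is not recorded by the kit named in the labels, so reads of such overlapping pairs cannot be told apart. Among the 136 that overlap no other gene, 83 fell (61.0%) and 35 rose (25.7%), shares near those of the 257.

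Malat1 and Neat1, neighbours on chromosome 19, had the highest CPM, which is not corrected for length. Neat1 (chr19:5824708-5845478, minus strand, GRCm38) gives rise to the scaffold of paraspeckles, nuclear bodies that retain RNAs and RNA-binding proteins. Its row counts all transcripts of the gene together, so a change of the scaffold alone cannot be read from it. The level of Neat1 ran from 2187 to 2598 CPM (median 2294) in sham and from 551 to 1560 CPM (median 944) in HP-AKI. No HP-AKI library reached the lowest sham library, and Neat1 fell by 1.31 on the log2 scale (SE 0.21, adjusted p = 4.06e-05 by edgeR). Malat1 (chr19:5795690-5802672, minus strand), a nuclear speckle RNA, ran from 1687 to 2881 CPM (median 2014) in sham and from 2432 to 2972 CPM (median 2538) in HP-AKI. Those ranges overlap, and the log2 difference of 0.31 (SE 0.12, adjusted p = 0.0372) did not pass with upper-quartile scaling (adjusted p = 0.0640) or when any 1 of sham 3, sham 4, sham 5, sham 6, HP-AKI 8 or HP-AKI 12 was left out (adjusted p = 0.0608 to 0.0920). Counts of Neat1 per count of Malat1, which need no scaling between libraries, were 0.902 to 1.53 in sham and 0.220 to 0.525 in HP-AKI, with the highest HP-AKI ratio in HP-AKI 8. Of 12 paraspeckle protein genes, 8 rose and 0 fell by edgeR, with a median log2 fold change of 0.52, beside 37.7% higher, 35.2% lower and a median of 0.04 over all genes tested. The 4 not called were Matr3, Cpsf6, Tardbp and Nudt21, and the lowest 2, Tardbp and Nudt21, both had a log2 difference of -0.02 (adjusted p of 0.908 and 0.874). Sfpq, needed to form paraspeckles, went from 179 ± 32.1 to 350 ± 29.4 CPM (SD, n = 6 each) and rose by 0.97. Miat, a further nuclear RNA of the same list and classed as lincRNA, was below the level limit as a mean and fell by 3.10 from 1.46 CPM.

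Most host genes of snoRNAs rose. A snoRNA host is spliced, its introns release snoRNAs that guide modification of ribosomal RNA, and the remaining exons are usually degraded by nonsense-mediated decay. Of 7 listed hosts among the 257 genes, 6 rose and Snhg18 fell. Of all 17 listed hosts tested, whatever their class in the table, 15 rose and 2 fell, Snhg18 and Snhg11. With library size scaling alone 1 of the 2 was still called lower. The median log2 fold change of the 17 was 1.25. Over all genes tested 37.7% were higher and 35.2% lower, with a median of 0.04. Snhg1 (chr19:8723496-8726442) ran from 18.2 to 37.1 CPM (median 23.8) in sham and from 106 to 173.6 CPM (median 130.5) in HP-AKI. That is the steepest rise of the 7, 2.37 on the log2 scale (SE 0.17, adjusted p = 8.53e-09 by edgeR), and 8 annotated snoRNAs lie within the gene. In the deposited table Snhg1 is 1 unspliced block over its whole span. Reads of its exons, introns and snoRNA loci are therefore counted together and cannot be told apart. Snhg6 was between 5.20 and 7.22 CPM (median 6.6) in sham and between 18.9 and 23.2 CPM (median 21.9) in HP-AKI, a rise of 1.73 (SE 0.11). Snhg12, host of 5 annotated snoRNAs, went from 14.9 to 17 CPM (median 16.0) up to 37.1 to 50.6 CPM (median 42.4), a rise of 1.41 (SE 0.09). Snhg7 was tightly grouped, at 7.52 to 9.87 CPM (median 8.54) in sham and 20.9 to 23.1 CPM (median 22.5) in HP-AKI, a rise of 1.37 (SE 0.08). In each of these 4 genes every HP-AKI library lay above every sham library.

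The remaining listed hosts moved less. The gene 2410004N09Rik, called Epb41l4aos in the later annotation, went from 1.32 to 2.44 CPM (median 2.02) to 3.93 to 5.08 CPM (median 4.59), a rise of 1.25 (SE 0.16). The gene 2810008D09Rik, now Snhg20, had overlapping groups of 4.78 to 6.69 CPM (median 5.58) and 6.29 to 7.85 CPM (median 6.82). Its log2 change of 0.32 (SE 0.11, adjusted p = 0.0155 by edgeR) did not pass without sham 1, sham 2 and HP-AKI 8 (adjusted p = 0.0631). Snhg18 was the exception, at 50.8 to 55.4 CPM (median 53.7) in sham and 27.4 to 33.3 CPM (median 32.0) in HP-AKI, a fall of 0.77 on the log2 scale (SE 0.07, adjusted p = 6.20e-08). Its nearest protein-coding gene, Sema5a, which encodes a semaphorin and starts on the opposite strand, fell by 1.18. By annotation and not from the list, 10 of the 257 genes contain a snoRNA, of which 7 rose and 2 fell (Snhg18 and 9430037G07Rik). Of these, 2700038G22Rik, named after its value was seen, contains Snord93 and rose by 1.80. Gene lists of proteins that act on these RNAs are read against the same background of 37.7% higher, 35.2% lower and a median of 0.04. Of 10 core genes whose proteins assemble on snoRNAs, 8 rose and 1 fell, with a median of 0.93. Nop58, a core protein of box C/D snoRNAs, went from 36.7 ± 6.70 to 161 ± 28.5 CPM (SD, n = 6 each), a rise of 2.13, while Nop10, of the box H/ACA particles, fell by 0.41. Of 13 genes of nonsense-mediated decay, 10 rose and 1 fell (Smg6, by 0.21, not called with library size scaling alone), with a median of 0.68. Of 15 genes of the nuclear exosome and its adaptors, which degrade many noncoding transcripts, 10 rose and 3 fell, with a median of 0.43; the 3 were Exosc7, Skiv2l2 (the helicase MTR4) and Zcchc8.

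**Figure D2:**
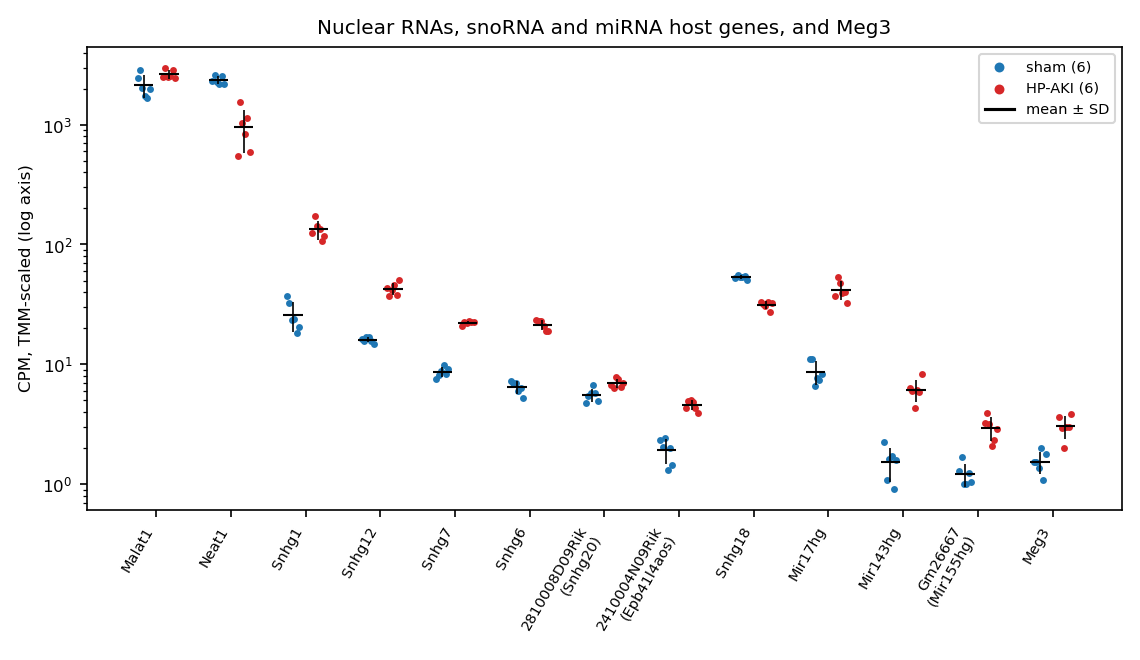
TMM-scaled CPM (log axis) in each library for 13 lincRNAs with a known role, sham in blue and HP-AKI in red, with lines for mean ± SD (6 libraries a group). Neat1 and Snhg18 are lower in HP-AKI, the groups of Malat1, 2810008D09Rik and Meg3 overlap, and the other 8 lie higher in every HP-AKI library, with Snhg1 going from a median of 23.8 to 130.5 CPM.

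Among the 3 listed microRNA hosts that belong to the 257 genes, Mir17hg rose most. This gene (chr14:115042879-115046727, plus strand) carries the miR-17-92 cluster, a known target of MYC with roles in cell growth. Its mature products, from RefSeq with build GRCm38.p6, are shown with the seed (bases 2 to 8) in capitals, because the cluster falls into seed families.
miR-17-5p: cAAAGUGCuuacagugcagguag
miR-20a-5p: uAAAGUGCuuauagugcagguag
miR-18a-5p: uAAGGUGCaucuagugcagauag
miR-19a-3p: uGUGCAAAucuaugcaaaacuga
miR-19b-3p: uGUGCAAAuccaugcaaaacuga
miR-92a-3p: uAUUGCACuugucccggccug
MiR-17-5p and miR-20a-5p share the seed AAAGUGC, and miR-19a-3p and miR-19b-3p share GUGCAAA. The host RNA ran from 6.53 to 11.2 CPM (median 8.0) in sham and from 32.2 to 53.4 CPM (median 40.0) in HP-AKI. The groups were well apart, a rise of 2.27 on the log2 scale (SE 0.16, adjusted p = 4.89e-09 by edgeR). These libraries measure the host transcript and not the mature microRNAs.

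The other 2 listed hosts of the 257 also rose. Gm26667, named Mir155hg in the later annotation, carries miR-155, a microRNA known from activated immune cells, and went from 0.998 to 1.70 CPM (median 1.14) to 2.08 to 3.93 CPM (median 3.03), a rise of 1.28 (SE 0.19). In the same libraries all 3 tested neutrophil markers rose, 2 of 3 tested lymphocyte markers fell, and of 5 macrophage markers 1 rose and 2 fell. The part of these cells in this result was not tested. Mir143hg, also called Carmn and known from smooth muscle, went from 0.912 to 2.25 CPM (median 1.60) to 4.32 to 8.36 CPM (median 6.03), a rise of 2.01 (SE 0.21). Among all 10 listed hosts tested, whatever their class, 7 rose and 1 fell, with a median of 1.14. Over all genes tested 37.7% were higher and 35.2% lower, with a median of 0.04. Of the 257 genes, 11 contain an annotated hairpin, and 54.5% of these were called, beside 72.8% of all genes tested. Of the 11, 5 rose (45.5%), 1 fell (9.09%) and 5 were not called. The one that fell, E130102H24Rik, named after its value was seen, carries Mir101a and went from 20.8 to 23.7 CPM (median 23.4) to 7.98 to 13.2 CPM (median 9.57), a fall of 1.20. The mature products of the hosts of miR-155 and miR-101a, a rise and a fall, are these.
miR-155-5p: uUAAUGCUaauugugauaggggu
miR-101a-3p: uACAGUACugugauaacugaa
A330023F24Rik, host of miR-29b and miR-29c, was among the abundant genes that were not called, at 45.5 to 66.5 CPM (median 55.4) in sham and 39.0 to 57.9 CPM (median 46.6) in HP-AKI (log2 difference -0.24, SE 0.12, adjusted p = 0.0791). It passed with upper-quartile scaling, without sham 5 and without HP-AKI 8, with log2 values of -0.28 to -0.32.

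Of the imprinted and p53-linked RNAs listed, few were expressed lincRNAs. Meg3, a maternally expressed RNA of the Dlk1-Dio3 locus, went from 1.07 to 2.0 CPM (median 1.52) to 1.99 to 3.87 CPM (median 2.97), groups that meet at 1 library each, and rose by 0.99 (SE 0.18, adjusted p = 0.000193 by edgeR). Pvt1 lies beside Myc and is known to be co-amplified with it. It had 4.88 to 7.76 CPM (median 5.43) in sham and 5.60 to 7.86 CPM (median 7.04) in HP-AKI, a log2 difference of 0.28 (SE 0.13, adjusted p = 0.0659). Myc itself, 47612 bases away, went from 2.51 to 35.7 CPM, a rise of 3.83. Without sham 2, Pvt1 passed with a log2 value of 0.37 (adjusted p = 0.00774). Crnde, beside Irx5, had 1.04 to 1.52 CPM (median 1.32) in sham and 0.905 to 1.92 CPM (median 1.28) in HP-AKI, a log2 difference of 0.05 (SE 0.21).

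The largest rises were in RNAs almost unread in sham kidney. The 12 largest, among genes whose groups did not overlap, ranged from 2.35 to 8.73 on the log2 scale. All 10 called rises of at least 8-fold were among the 19 lincRNAs with a sham mean under 1 CPM. Those 19 entered through their HP-AKI level, so their direction was set by the choice and their rises are a description only. Among the 186 lincRNAs with at least 1 CPM in each group, the largest rise was 2.37. For 1700072G22Rik, on chr1:51457932-51458931 (minus strand), the 6 sham libraries held 2 counts in all and the 6 HP-AKI libraries 1168. That is a ratio of 629 per total count, with a 95% interval of 174 to 5201 that covers counting error only. HP-AKI levels ran from 3.83 to 8.10 CPM (median 4.90). For 2310069B03Rik the counts were 3 and 498, a ratio of 179 (95% interval 60.8 to 870.2), and HP-AKI levels ran from 1.11 to 4.72 CPM (median 2.02). Both were read in every HP-AKI library. Next came 1200007C13Rik, with 0 to 0.107 CPM (median 0.0255) in sham and 1.98 to 2.70 CPM (median 2.25) in HP-AKI, a rise of 6.01 (SE 0.36). Gm5544 rose by 5.51 (SE 0.49), to between 1.89 and 6.26 CPM (median 2.53), from 0 to 0.122 CPM (median 0.0688). These 4 RNAs were near 0 in every sham library.

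Others of the 12 started from a low but measurable level. Gm807 rose by 4.09, 2810407A14Rik by 3.93, Gm15892 by 3.62, and 3300005D01Rik by 3.47. The last of these ran from 0.451 to 0.910 CPM (median 0.778) in sham and from 4.83 to 9.22 CPM (median 8.65) in HP-AKI. A530013C23Rik went from 0.106 to 0.295 CPM (median 0.168) to 1.16 to 4.21 CPM (median 1.77), a rise of 3.54 (SE 0.37). It lies 759 bases from Cebpb, a transcription factor of the acute-phase response, which rose by 3.25. Gm26799 went from 0.456 to 0.822 CPM (median 0.636) to 3.97 to 7.57 CPM (median 5.23), a rise of 3.15 (SE 0.21). It starts on the opposite strand 91 bases from Rad18, a ubiquitin ligase of DNA damage tolerance, which rose by 3.26. The gene 5830416P10Rik, named Mirt1 in the later annotation after myocardial infarction, went from 1.20 to 1.85 CPM (median 1.43) to 4.81 to 9.38 CPM (median 8.11), a rise of 2.35 (SE 0.18). Snhg1, described above, completes the 12, and its neighbour Slc3a2, the heavy chain of an amino acid transporter, rose by 1.39 at a distance of 127 bases.

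Nearest protein-coding genes of the other rises moved by less. Nabp1, a single-stranded DNA-binding protein 6931 bases from 1700072G22Rik, rose by 0.75, Ptpn1 near 1200007C13Rik by 1.00 and Sec22b near Gm5544 by 1.15. Bach1, the heme-responsive transcriptional repressor 50729 bases from 2810407A14Rik, rose by 1.31, Smndc1 near 5830416P10Rik by 0.68 and Vezf1 near Gm15892 by 0.35. Snx9, near 3300005D01Rik, was not called (0.04), Zfp366 near Gm807 fell by 0.47, and Sema4f near 2310069B03Rik was too low to test.

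**Figure D3:**
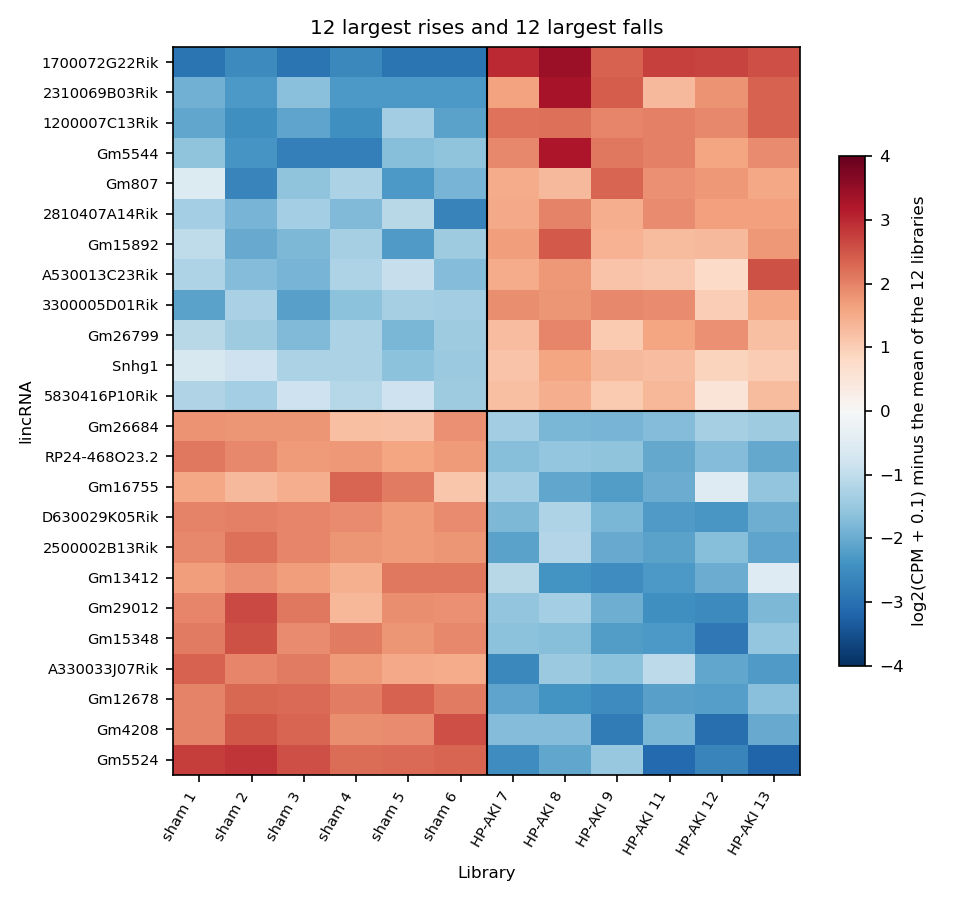
Level in each library of the 12 lincRNAs with the largest rise (upper block) and the 12 with the largest fall (lower block), as log2(CPM + 0.1) minus the gene's mean over the 12 libraries. The pseudocount shrinks the contrast of genes near 0 in sham, and the direction of every gene is the same in all 6 HP-AKI libraries because the genes were picked for groups that do not overlap.

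Promoter sequence was available for part of the genes. RefSeq windows from 250 bases before to 50 after a start (GRCm38.p6) were found for 153 of the 257 genes, 201 windows in all. The AP-1 element, TGANTCA, which reads the same on both strands, stood in 7 of 44 windows of lincRNAs that rose (15.9%), in 9 of 117 of those that fell (7.69%), in 3 of 40 of those not called (7.50%) and in 7.81% of all 32817 windows of the table. Of the 12 largest rises 7 had a window and 4 of them held the element; of the 12 largest falls 8 had a window and 1 held it, that of Gm4208. The antioxidant response element, TGACNNNGC, searched on both strands and able to overlap the AP-1 element, stood in 15.9% of windows of those that rose, 18.8% of those that fell and 12.4% of all. The AP-1 and antioxidant elements come from a longer list that was searched. The cyclic AMP response element, TGACGTCA, stood in 2.27% of windows of lincRNAs that rose, 5.98% of those that fell and 1.79% of all. The E-box, CACGTG, stood in 9.09%, 12.8% and 7.15%. A C/EBP-ATF4 element, an HNF1 element, a heat shock element and the TATA box were also searched. No difference between these shares was tested. The 4 windows of largest rises that hold the AP-1 element are shown because they differ in where the element, in capitals, lies. Its first base is 26 bases before the start in 2310069B03Rik (chr6:82881804-82882103, minus strand), 104 in A530013C23Rik (chr2:167690509-167690808, plus strand), 140 in 5830416P10Rik (chr19:53464747-53465046, minus strand) and 203 in 3300005D01Rik (chr17:5798407-5798706, plus strand).
2310069B03Rik: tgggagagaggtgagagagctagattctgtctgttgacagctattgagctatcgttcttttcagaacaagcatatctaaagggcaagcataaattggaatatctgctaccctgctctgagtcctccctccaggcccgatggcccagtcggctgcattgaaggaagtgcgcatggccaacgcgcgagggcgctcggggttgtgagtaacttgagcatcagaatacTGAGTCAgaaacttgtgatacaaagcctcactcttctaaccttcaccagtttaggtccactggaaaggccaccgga
A530013C23Rik: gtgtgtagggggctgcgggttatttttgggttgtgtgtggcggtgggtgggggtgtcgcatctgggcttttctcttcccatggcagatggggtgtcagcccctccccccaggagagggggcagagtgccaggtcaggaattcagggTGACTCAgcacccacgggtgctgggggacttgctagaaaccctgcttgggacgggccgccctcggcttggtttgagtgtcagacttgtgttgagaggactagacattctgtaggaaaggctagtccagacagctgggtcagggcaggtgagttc
5830416P10Rik: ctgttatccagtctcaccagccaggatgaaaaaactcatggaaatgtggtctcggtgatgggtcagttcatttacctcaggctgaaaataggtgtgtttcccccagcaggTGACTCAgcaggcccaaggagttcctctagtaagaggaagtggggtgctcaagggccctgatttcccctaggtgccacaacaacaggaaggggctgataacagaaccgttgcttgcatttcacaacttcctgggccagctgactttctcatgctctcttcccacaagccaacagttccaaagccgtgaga
3300005D01Rik: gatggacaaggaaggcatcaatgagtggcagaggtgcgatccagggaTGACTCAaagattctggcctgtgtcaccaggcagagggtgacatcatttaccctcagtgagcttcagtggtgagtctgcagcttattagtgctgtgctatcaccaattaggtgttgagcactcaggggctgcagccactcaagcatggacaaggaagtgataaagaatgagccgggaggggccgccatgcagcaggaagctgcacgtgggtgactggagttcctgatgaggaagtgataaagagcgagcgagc
In A530013C23Rik and 5830416P10Rik the AP-1 letters and the gc after them also spell an antioxidant response element. A match of letters is a description of these windows and does not show that a factor binds there.

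The largest falls included abundant RNAs. Of 21 called falls of at least 8-fold, 15 were among the 52 lincRNAs with an HP-AKI mean under 1 CPM. Those 52 entered through their sham level, so their direction was set by the choice. The 12 largest falls ranged from -3.57 to -5.29 on the log2 scale. D630029K05Rik (chr10:116964707-116969105, plus strand) was the most abundant of them, at 158.9 to 196.6 CPM (median 185) in sham and 9.61 to 20.7 CPM (median 13.2) in HP-AKI. It fell by 3.77 (SE 0.16, adjusted p = 3.60e-11 by edgeR), and on the deposited RPKM scale, which allows levels of different genes to be compared, it ranked number 5 of the 257 with a mean of 11.3. Gm5524 (chr1:27884046-27902396, plus strand) had the steepest fall, from 9.55 to 14.5 CPM (median 11.1) to 0.123 to 0.613 CPM (median 0.245), 5.29 on the log2 scale (SE 0.28). Gm4208 went from 8.53 to 14.1 CPM (median 10.6) to 0.198 to 0.614 CPM (median 0.534), a fall of 4.59 (SE 0.25). Gm12678 (chr4:44943753-44948330, plus strand) went from 31.5 to 41.5 CPM (median 36.1) to 1.30 to 2.46 CPM (median 1.69), a fall of 4.41 (SE 0.15). No role is given here for these 4 RNAs, and none of their HP-AKI values came near a sham value. Of 7 kidney epithelial markers, 4 fell in the same libraries, Lrp2 among them, and 2 rose. The part of such shifts in these falls was not tested.

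Gm15348 fell by 4.15, from a sham median of 20.8 to 1.26 CPM, Gm29012 by 4.12, from 9.67 to 0.605 CPM, and Gm13412 by 4.04, from 2.72 to 0.0911 CPM. Nearest protein-coding genes of these and of Gm4208 and Gm12678 were not called or not tested: Nrp2, Zcchc7, Tubgcp3 and Fam102a had log2 differences of 0.06 to 0.27, and Cdh20 was too low to test, as were Gm597 beside Gm5524 and Gm10271 over D630029K05Rik. The other members of the 12 fell with their neighbour. A330033J07Rik fell by 4.32 and Id4, an inhibitor of basic helix-loop-helix factors that it overlaps on the opposite strand, by 1.90. The gene 2500002B13Rik went from 25.8 to 36.8 CPM (median 28.5) to 1.70 to 3.41 CPM (median 1.82), a fall of 3.79, and Sap30, a subunit of a histone deacetylase complex 194 bases away, fell by 1.62. Gm16755 fell by 3.64 and Mrpl12, a mitochondrial ribosomal protein, by 0.90, and Gm26684 fell by 3.57 and Enpp2, which makes lysophosphatidic acid, by 1.32. RP24-468O23.2 went from 29.7 to 42.7 CPM (median 32.8) to 2.30 to 3.29 CPM (median 2.93), a fall of 3.62. All of its span lies in exons of Slc2a2, the glucose transporter GLUT2, in the later annotation, and Slc2a2 fell by 3.26.

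Other abundant lincRNAs fell by less or were not called. By RPKM, the order of mean levels was Malat1 (109), Yam1 (76.1), Neat1 (25.1), Gm15889 (13.8), D630029K05Rik (11.3), Gm10804 (9.55), Snhg18 (9.10) and Snhg1 (8.76). Gm10804 went from 133.6 to 214.6 CPM (median 174) to 17.8 to 47.0 CPM (median 20.1), a fall of 2.85 (SE 0.23), although Cd82, which it overlaps, was not called (0.26). Gm15889 went from 23.7 to 27.8 CPM (median 26.8) to 5.54 to 10.5 CPM (median 7.58), a fall of 1.77 (SE 0.13), while Herpud1, the nearest protein-coding gene, had a log2 difference of -0.02. Yam1, called Gm42418 in the later annotation and known to hold sequence like ribosomal RNA, had 361 to 503 CPM (median 431) in sham and 340 to 536 CPM (median 451) in HP-AKI, a log2 difference of 0.03 (SE 0.12). Its groups overlap over nearly their whole range, and the sign of the difference changed with the scaling. The gene 5031425E22Rik, beside Kmt2e, had 24.3 to 30.6 CPM (median 26.0) and 26.9 to 34.1 CPM (median 29.9), a log2 difference of 0.19 (adjusted p = 0.0569). The let-7d host 6720427I07Rik had 17.4 to 29.5 CPM (median 20.4) and 20.7 to 37.5 CPM (median 26.3), a log2 difference of 0.32 (adjusted p = 0.0786).

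LincRNAs and their nearest protein-coding genes moved together only in part. Both genes were tested in 233 pairs, and across pairs, which are not independent replicates and share libraries, the log2 fold changes had a Pearson correlation of 0.373 and a Spearman correlation of 0.365. Of 138 pairs in which both were called, 92 went the same way (66.7%), 55 down and 37 up. Some protein-coding genes, such as Zfp619 and Ak4, are the neighbour of several lincRNAs. Neighbouring genes of other classes were not compared, so these values do not show a likeness particular to lincRNAs. The Spearman correlation was 0.444 over 92 pairs apart by up to 5 kb, 0.311 over 62 overlapping pairs, 0.327 over 60 pairs 5 to 50 kb apart and 0.251 over 19 farther pairs. By arrangement it was 0.404 over 92 pairs on opposite strands with starts within 5 kb and 0.40 over 29 pairs with the lincRNA downstream on the same strand. It was 0.157 over 32 with the lincRNA upstream on the same strand, 0.101 over 37 convergent or antisense pairs, and 0.404 over 19 pairs in other arrangements. Over 6 overlapping pairs on the same strand it was 0.029. The highest value, 0.938, was that of 18 pairs whose relative strand was not found in the later annotation.

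Part of the likeness came with rows that lie inside a protein-coding gene. For 10 of the 257, at least 50% of the span is covered by exons of 1 protein-coding gene of the later annotation, and none of the 10 identifiers is found there. They include Gm20645 in Rel, Gm17388 in Hnrnpr and RP24-468O23.2 in Slc2a2. In these 10 pairs the Spearman correlation was 0.930 and all 7 pairs with both called went the same way. Gm20645 rose by 1.30 and Rel, a subunit of NF-kB, by 1.45. In the other 223 pairs the Spearman correlation was 0.336, and 85 of 131 called pairs went the same way (64.9%). Without the 10 rows, 54 lincRNAs rose and 140 fell.

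The following pairs were chosen after their values were seen. Shared rises on opposite strands were found for Gm26902 (2.24) with Ch25h (4.78), which makes 25-hydroxycholesterol, and for 4933433G15Rik (1.69) with the kinase gene Mapk6 (2.77). Gm26902 overlaps Ch25h, whose exons in the later annotation cover 5.3% of its span, so reads of this pair cannot be told apart. Dio3os rose by 1.26 and Dio3, which inactivates thyroid hormone, by 4.11. Shared falls were found at nephron genes. Lhx1os fell by 1.64, from 10.8 to 13.3 CPM (median 12.5) to 2.97 to 4.73 CPM (median 3.87), and Lhx1, a transcription factor of kidney development, by 1.41. Pantr1 fell by 1.91 and Pou3f3 by 1.10, and Gm19541 fell by 3.44 and Tinag, a tubular basement membrane protein, by 1.97. Gm26697 fell by 2.80 and Slc27a2, a fatty acid transporter that it overlaps on the opposite strand, by 2.18. Exons of Slc27a2 in the later annotation cover 3.8% of the span of Gm26697. Mean Slc27a2 went from 4849 CPM in sham to 1073 CPM in HP-AKI. Reads of this pair cannot be told apart, and the part of Slc27a2 reads in the Gm26697 row was not tested. Some close pairs were opposed. RP24-180K20.1 fell by 2.19 while Fgg, the fibrinogen gamma chain that it overlaps on the opposite strand, rose by 3.52, and A330009N23Rik fell by 1.93 while Grasp, 86 bases away, rose by 1.98. Neat1 fell while Frmd8, 4224 bases away, rose by 1.15.

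**Figure D4:**
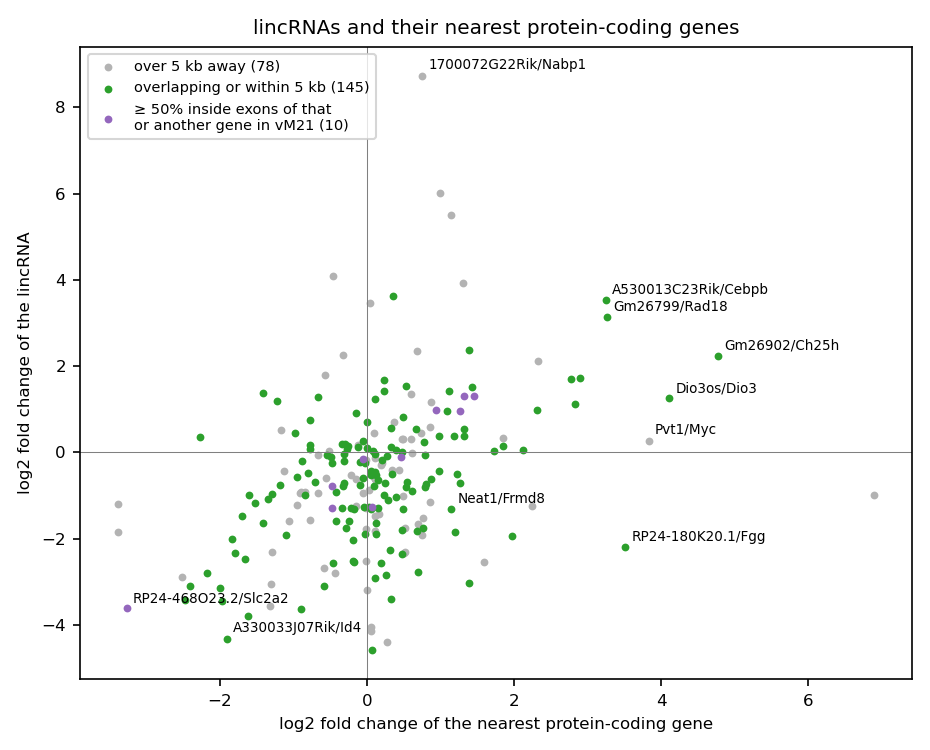
Log2 fold change of the nearest protein-coding gene (horizontal axis) against that of the lincRNA (vertical axis) for 233 tested pairs. Purple points are the 10 rows at least 50% inside exons of a protein-coding gene in the later annotation and lie along a rising line, whereas green (up to 5 kb, 145 pairs) and grey points (farther, 78 pairs) fill all 4 quadrants.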

How the data were processed

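RNA sequencing of 12 mouse kidney libraries was deposited as 1 gene table with raw counts and RPKM for each library. Per the submitters' processing notes, the authors used TopHat2 (2.1.0), featureCounts and edgeR with the GRCm38 build; counting options, strand setting and annotation release are not given in the sources used here. Counts per gene were deposited without normalization; the RPKM values deposited by the authors were used to compare levels between genes and in 1 alternative. Members, lists and tests were chosen with earlier results of these data known. Counts were fitted with edgeR 4.0.16 (R 4.3.3): TMM factors, filterByExpr, quasi-likelihood F test, Benjamini-Hochberg adjustment over all 17470 genes tested, called at an adjusted p under 0.05. Printed CPM values are TMM-scaled; membership and the values at the limit used plain CPM. SEs were computed as the absolute log2 fold change over the root of the F statistic. The library totals of 31624522 to 41951129 counts set the precision.

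Named genes were the 8 with the highest mean RPKM, the 12 largest rises and 12 largest falls among called genes without overlap, the 4 most abundant not called, members of the lists, and the genes at the limit. On simulated counts of 17343 genes, 65, 65 and 67 genes were changed by 0.5, 1 and 2 on the log2 scale, with the same spread for every gene. Of these edgeR recovered 33.8%, 92.3% and 100%, and 5.7% of its calls were unchanged genes. In the data 72.8% of genes tested were called and the spread differs between genes. The simulated rates therefore do not carry over to the calls given here. Alternatives were DESeq2 1.42.0, limma 3.58.1 (voom, or log2(RPKM + 0.1)), other scalings and filters, other memberships and leaving libraries out. Annotation came from GENCODE vM21 by Ensembl identifier, and sequences from RefSeq (GRCm38.p6). Some neighbouring genes are not reported here.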

Additional observations from a re-analysis of the deposited data

Results flagged for a closer look

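Within each group of 6, the highest and lowest value of every named lincRNA was compared with its nearest neighbour, and 7 of 90 groups held a value far from the others by Dixon's gap ratio. For independent values with a normal spread, chance gives about 1 in 20. The named genes share libraries and many were picked for groups that do not overlap, so that rate need not hold here. In sham 2, Gm15348 stood at 30.1 CPM and Pvt1 at 7.76 CPM, each the highest of the sham libraries. In HP-AKI 12, Gm16755 stood at 0.622 CPM and Gm10804 at 47.0 CPM, the highest of the HP-AKI libraries and toward the sham level. In HP-AKI 8, Gm15892 stood at 6.76 CPM and Gm5544 at 6.26 CPM, the highest of the HP-AKI libraries. In sham 5, 1200007C13Rik stood at 0.107 CPM, the highest of the sham libraries but still near 0, where few reads set the value.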

How the results depend on the processing

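Of the 202 calls, between 194 and 202 were kept in the same direction under each alternative scaling, tool, filter or left-out library, and 0 were called in the opposite direction. Leaving out 1 library at a time gave 55 to 62 lincRNAs higher and 140 to 146 lower. Restricting the set changed the counts because fewer genes were counted: 35 higher and 83 lower among those overlapping no other gene, and 93 lower among those with at least 1 CPM in each group. The set without rows inside protein-coding exons was chosen after seeing the data. With no scaling beyond library size, the median over all genes went from 0.04 to 0.16. For the named lincRNAs, 903 of 944 alternative values kept direction and call. Signs changed only for Yam1 and Crnde, neither of them called. Yam1 was -0.026 with upper-quartile scaling, -0.012 with no filter, -0.042 without sham 1, sham 2 and HP-AKI 8, and -0.054 to 0.074 without 1 library at a time. Crnde was -0.022 without those 3 libraries and -0.10 to 0.13 without 1 library at a time. The cause was not tested. Besides the cases given with Malat1, A330023F24Rik and Pvt1, the call of 2810008D09Rik was lost without HP-AKI 9 and with no filter, Pvt1 passed without HP-AKI 12 and with limma-voom, 5031425E22Rik without sham 2 or HP-AKI 9, and 6720427I07Rik without sham 2 or HP-AKI 13. The last 3 genes also passed with library size scaling alone and on log2(RPKM + 0.1), and Pvt1 and 6720427I07Rik without sham 1, sham 2 and HP-AKI 8. On log2(RPKM + 0.1), whose pseudocount shrinks changes of low genes, 11 called genes moved by over 1.5 times, such as 1700072G22Rik from 8.73 to 4.93. No paired analysis was possible because the groups share no replicate numbers. Depth limits the RNAs near 0 in sham, whose ratios have wide counting intervals.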
